A study of Mus musculus with 4 samples.

Results

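The microRNAs miR-192, miR-194 and miR-215 were followed in extracellular vesicles, the small membrane particles that cells release, from C2C12 cells. C2C12 is an established mouse myoblast line. Small RNA was sequenced from 2 vesicle samples of cells treated with hydrogen peroxide, called damaged, and from 2 samples called WT. The genotype label is WT in both groups, and the treatment label of the WT group is also WT. All cells grew in DMEM with 10% fetal bovine serum and penicillin/streptomycin, and the vesicles were purified by differential centrifugation. No dose or duration of the peroxide treatment is stated in the sources used here. The labels do not say whether replicates came from separate cultures. The p-values set each group difference against the spread of these samples only, estimated partly from all tested rows. That spread may be technical. The comparison addresses how the miRNA cargo of vesicles differs between peroxide-damaged and healthy muscle cells.

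The members were the rows for the 5p arms of miR-192 (MIMAT0000517), miR-194 (MIMAT0000224) and miR-215 (MIMAT0000904) in all gene copies, and the opposite arms of the same hairpins. The rule found 8 rows for 7 mature miRNA IDs, of 2110 rows for 1966 IDs in the table. The rule used no measured value, but the group was proposed with earlier results of these data in view. Library totals were 6901394 and 7350345 counts in damaged vesicles, against 4577668 and 7638663 counts in WT vesicles.

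A miRNA hairpin is cut into a duplex whose arms, 5p and 3p, can each be loaded into an Argonaute protein. The loaded strand finds messenger RNAs mainly through its seed, bases 2 to 8. In human cells, p53 raises transcription of the clusters that hold miR-192, miR-194 and miR-215, and these miRNAs can in turn lower MDM2, the ubiquitin ligase that degrades p53. All of them are best known as abundant miRNAs of liver, kidney and gut epithelium. Hydrogen peroxide is an oxidant that damages DNA, a lesion to which p53 responds.

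The mature sequences below, from RefSeq on GRCm38.p6, are shown because they set which members share targets by seed and which reads can be told apart. Capitals mark the seed.
miR-192-5p: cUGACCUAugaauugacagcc
miR-215-5p: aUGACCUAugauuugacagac
miR-194-5p: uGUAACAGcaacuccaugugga
miR-194-1-3p: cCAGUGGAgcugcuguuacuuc
miR-194-2-3p: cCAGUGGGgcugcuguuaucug

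MiR-192-5p and miR-215-5p have the same seed, and no other ID whose row was matched to RefSeq has it. Rows not matched to RefSeq had no sequence here and were not compared. Over their 21 bases they are identical at 18, and counted from 1 at the 5′ end of miR-192-5p they differ by C1A, A12U and C20A. The seed of miR-194-5p is found in no other matched ID. Its 3p arms come from separate genes and are identical at 18 of 22 bases. They differ by A8G, C19U, U20C and C22G, counted from the 5′ end of miR-194-1-3p, so the first of these changes falls in the seed.

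The genes lie in 2 pairs, each with a copy of miR-194, and coordinates are on mm10. On chromosome 1, plus strand, miR-194-5p of Mir194-1 is at chr1:185313325-185313346 and miR-215-5p at chr1:185313610-185313630. Their hairpins are 195 bases apart. Mir194-1 lies in an intron and Mir215 in an exon of 2010103J01Rik, a noncoding RNA on the same strand, and both lie in an intron of Iars2 on the opposite strand. Iars2 encodes the mitochondrial isoleucyl-tRNA synthetase. On chromosome 19, plus strand, miR-194-5p of Mir194-2 is at chr19:6264658-6264679 and miR-192-5p at chr19:6264857-6264877, with 115 bases between the hairpins. This pair lies between annotated genes, with the end of Atg2a 2308 bp to the left of Mir194-2 and Gm14963 3863 bp to the right of Mir192.

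The hairpins of the miR-194 copies are shown because the same mature 5p arm sits in different flanks. Capitals mark the 5p and the 3p arm.
Mir194-1: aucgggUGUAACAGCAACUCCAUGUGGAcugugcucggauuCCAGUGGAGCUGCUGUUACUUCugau
Mir194-2: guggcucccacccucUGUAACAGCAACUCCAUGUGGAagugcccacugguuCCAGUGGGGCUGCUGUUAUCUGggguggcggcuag

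**Figure D1:**
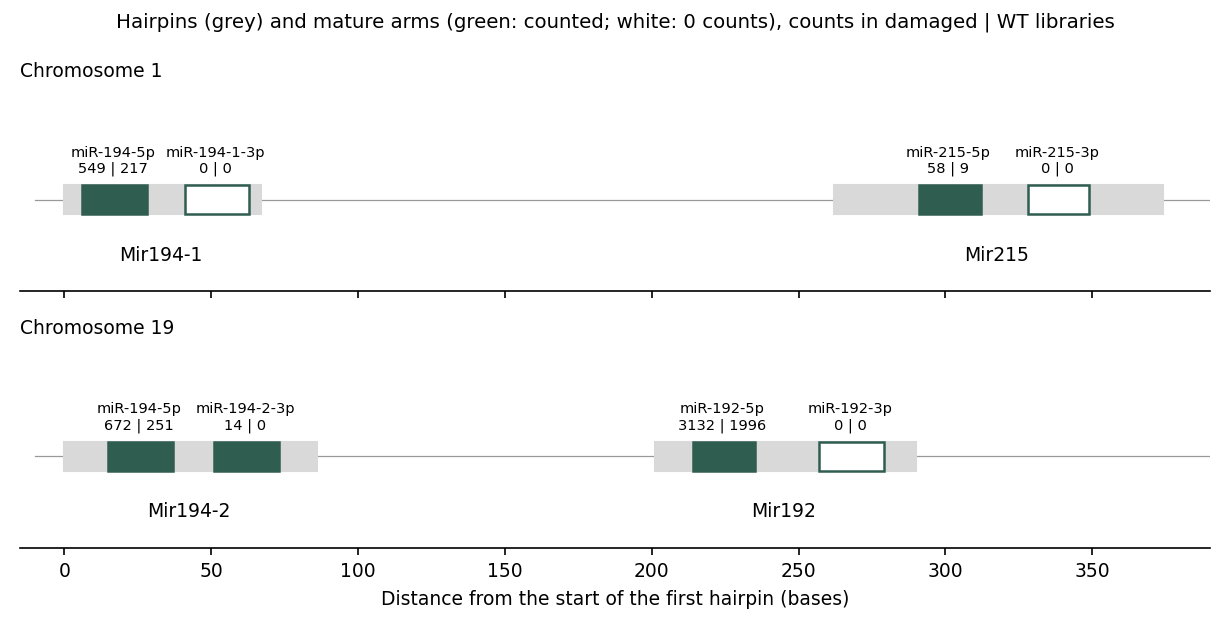
Hairpins (grey) and mature arms of the chromosome 1 pair and the chromosome 19 pair, by distance in bases from the start of the first hairpin, with each arm's summed counts in the 2 damaged libraries and then the 2 WT libraries. Each 5p arm had counts (green), while the 3p arms of Mir194-1, Mir215 and Mir192 had 0 in every library (white).

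Levels are depth-scaled counts (CPM) scaled further by edgeR's trimmed mean of M-values (TMM). All members are 21 or 22 bases long, so no length correction was made. Differences in how well each sequence is captured and read were not tested, and they limit comparisons of level between members. All 4 of the 5p rows had higher CPM in both damaged libraries than in both WT libraries, as did 29.1% of the 536 rows tested over the whole table. None of these members passed the test at an adjusted p of 0.05, against 9.51% of the tested rows that passed in either direction and 4.10% that were higher in damaged vesicles. With an unadjusted p under 0.05 and a higher level in damaged vesicles were 3 of the 4 rows, against 13.6% of the tested rows. Of those 3 rows, 2 hold the same miR-194-5p sequence.

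**Figure D2:**
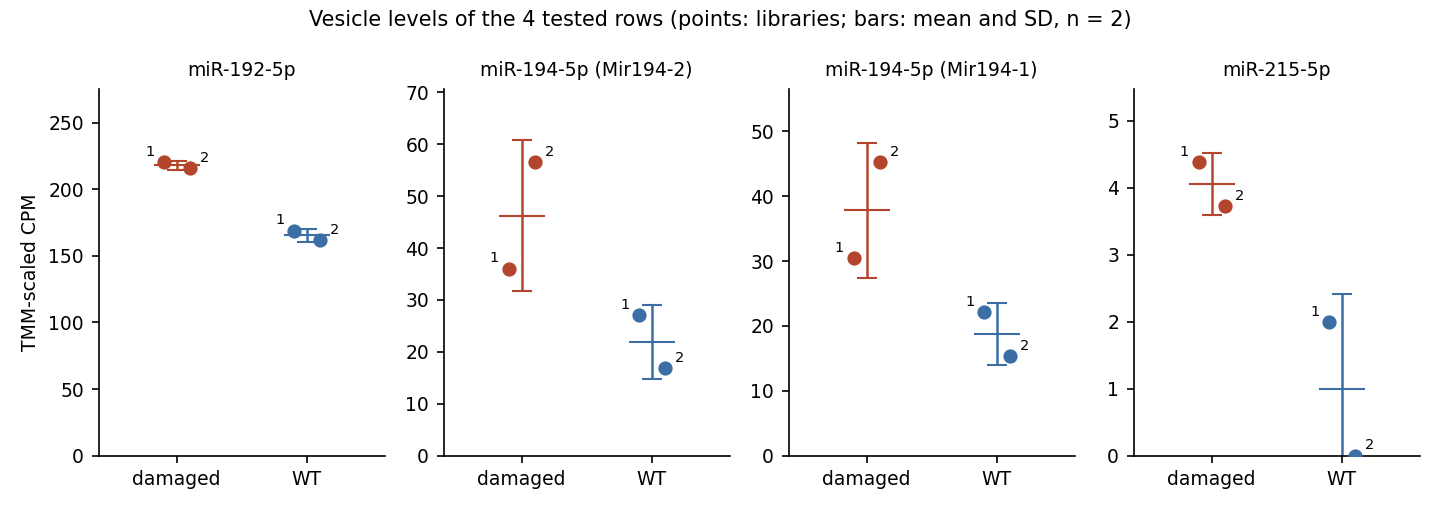
TMM-scaled CPM of the 4 tested rows in damaged and WT vesicles, 1 panel per row with its own axis from 0. Numbered points are libraries and bars are the mean and SD (n = 2). Damaged libraries lie above WT libraries in each panel, and the SD of WT miR-215-5p reaches below the axis.

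MiR-192-5p, which in human cells lowers cell-cycle regulators, was the most abundant member. It had 1510 and 1622 counts in damaged libraries, against 763 and 1233 counts in WT libraries. Its scaled levels were 220 and 216 CPM in damaged vesicles, against 169 and 162 CPM in WT vesicles. The groups did not overlap, and replicates within a group lay close together. The means were 218 ± 3.22 CPM in damaged vesicles and 165 ± 4.98 CPM in WT vesicles (SD, n = 2 each). The log2 fold change was 0.40 ± 0.15 (SE), with an adjusted p of 0.148 by edgeR's quasi-likelihood test with Benjamini-Hochberg adjustment over all tested rows. Under the 14 alternatives its log2 fold change was 0.34 to 0.44, and the adjusted p was 0.115 to 0.447.

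MiR-194-5p, a miRNA of epithelial cells that p53 induces in human cells, was counted in a row for each gene. The Mir194-1 row had 209 and 340 counts in damaged libraries, against 100 and 117 counts in WT libraries. Its levels were 30.5 and 45.2 CPM in damaged vesicles, against 22.1 and 15.4 CPM in WT vesicles. The Mir194-2 row had 247 and 425 counts in damaged libraries, against 122 and 129 counts in WT libraries. In CPM that was 36.0 and 56.5 in damaged vesicles, against 27.0 and 16.9 in WT vesicles. In both rows damaged replicate 2 was the highest library and WT replicate 2 the lowest. By edgeR, the log2 fold change was 1.02 ± 0.34 (SE, adjusted p = 0.107) for the Mir194-1 row and 1.08 ± 0.37 (SE, adjusted p = 0.112) for the Mir194-2 row.

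Reads of an identical sequence cannot be assigned to a gene copy, so the counts were also summed by mature ID. The sum for miR-194-5p was 456 and 765 counts in damaged libraries, against 222 and 246 counts in WT libraries. Refitted with all copies summed over the whole table, miR-194-5p had 65.8 and 104 CPM in damaged vesicles, against 47.6 and 32.9 CPM in WT vesicles. The means were 85.0 ± 27.0 CPM in damaged vesicles and 40.3 ± 10.4 CPM in WT vesicles (SD, n = 2 each). The damaged libraries differed from each other by more than the gap between damaged replicate 1 and WT replicate 1. The log2 fold change was 1.08 ± 0.32 (SE), with an edgeR adjusted p of 0.0831 over 483 mature IDs, of which 10.1% passed.

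The call for summed miR-194-5p depended on the setting. Of 13 alternatives, 4 gave an adjusted p under 0.05 and 9 did not, over a range of 0.000961 to 0.315, with the direction positive in all 13. With DESeq2 the log2 fold change was 1.02 at an adjusted p of 0.0315, and with edgeR and no filter on low counts it was 1.10 at an adjusted p of 0.000961. It was 0.69 without damaged replicate 2 and 0.77 without WT replicate 2, against 1.30 without damaged replicate 1 and 1.24 without WT replicate 1, and none of these 4 passed.

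**Figure D3:**
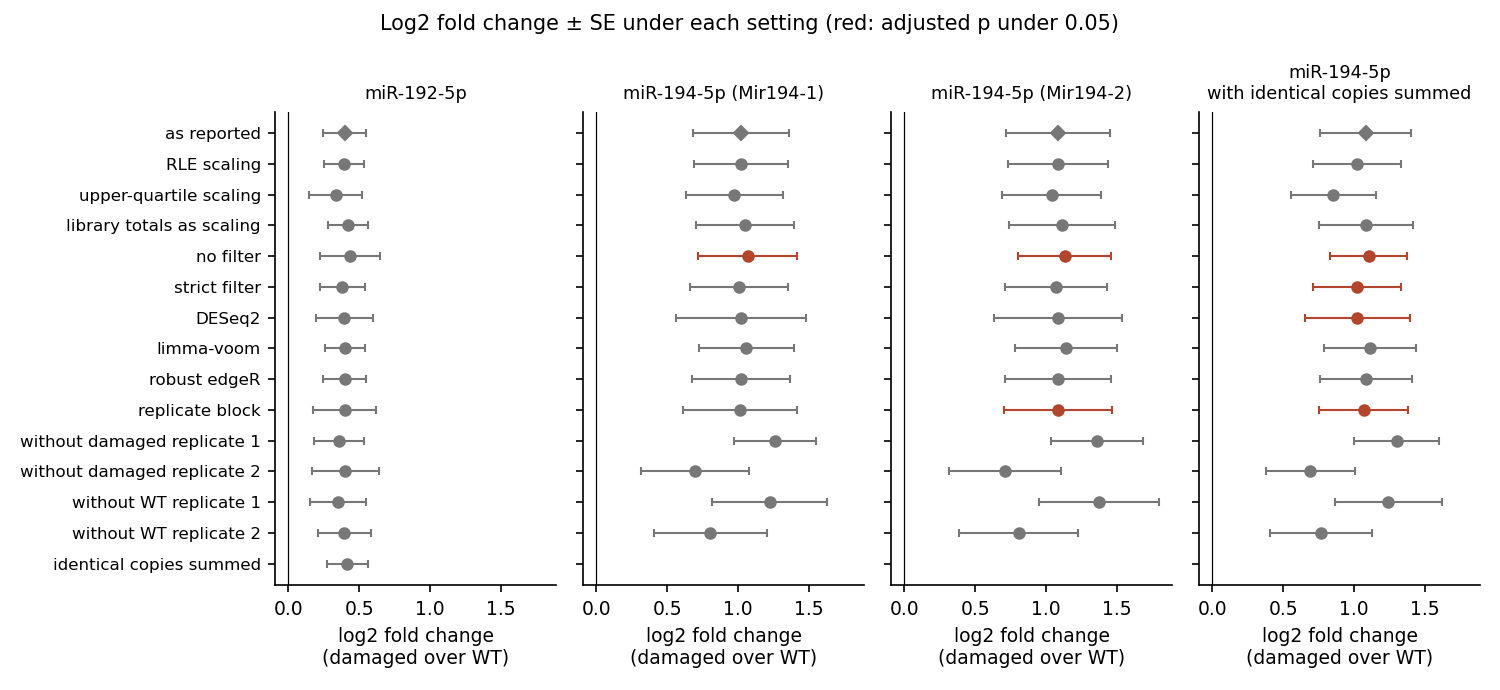
Log2 fold change (damaged over WT) with its SE for miR-192-5p, the 2 miR-194-5p rows and their sum, down the page by setting. Red points have an adjusted p under 0.05. They are 4 of the alternatives for the sum, 2 for the Mir194-2 row, 1 for the Mir194-1 row and none for miR-192-5p, and all points lie above 0.

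The 2 miR-194-5p rows shared the reads in nearly the same proportion in each library. The Mir194-2 row held 54.2% and 55.6% in damaged libraries, against 55.0% and 52.4% in WT libraries. The means were 54.9 ± 0.98% in damaged vesicles and 53.7 ± 1.78% in WT vesicles (SD, n = 2 each), a gap smaller than the SD of the WT libraries. Over the 4 libraries the Mir194-2 row held 923 of 1689 counts, or 54.6% (exact Clopper-Pearson 95% interval 52.2 to 57.0%, counting error only). Since the sequence of both rows is identical, this split does not show which gene the reads came from. Of 37 mature IDs with 2 rows and at least 100 counts, the larger row held a median of 51.1%, and 6 had a larger share in it than miR-194-5p.

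MiR-215-5p, which shares its seed with miR-192-5p, was near the detection limit. It had 30 and 28 counts in damaged libraries, against 9 and 0 counts in WT libraries. That was 4.38 and 3.72 CPM in damaged vesicles, against 1.99 and 0 CPM in WT vesicles. The groups did not overlap, but the WT libraries differed from each other, and the count of 0 in WT replicate 2 allows up to 0.393 CPM before TMM scaling (3 counts). The log2 fold change was 2.10 ± 1.56 (SE), with an edgeR adjusted p of 0.423. Without WT replicate 2 it was 1.04 (adjusted p = 0.538). Without WT replicate 1 the only WT library is at 0, and the mean in damaged vesicles was 10.3 times the 3-count floor of that library. Among its 13 alternatives none passed, with adjusted p from 0.208 to 0.612.

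The 3p arms were hardly counted. MiR-192-3p, miR-194-1-3p and miR-215-3p had 0 counts in every library, which allows 0.393 to 0.655 CPM per library. For miR-192-3p, 3 counts would be 0.185% to 0.393% of the miR-192-5p counts of the same library. MiR-194-2-3p had 0 and 14 counts in damaged libraries, against 0 and 0 counts in WT libraries, and its row was not tested because its counts were too low. In damaged replicate 2 those 14 counts were 3.19% of the counts of both Mir194-2 arms (exact Clopper-Pearson 95% interval 1.75 to 5.29%).

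Taken as a group, the 8 rows held 0.0289% and 0.0330% of all counts in damaged libraries, against 0.0217% and 0.0194% in WT libraries. The exact permutation test, two-sided with 2 against 2 libraries, gave p = 0.333, the smallest p this design allows. Among the 483 mature IDs tested with copies summed, ordered by mean CPM from the highest, miR-192-5p stood at 115, miR-194-5p at 164 and miR-215-5p at 392. Mean levels over the 4 libraries were 62.6 CPM for miR-194-5p and 2.52 CPM for miR-215-5p, while miR-192-5p ranged from 164 to 221 CPM, beside a median of 16.5 CPM over the tested IDs. The order was the same in every library. The spread between libraries left no overlap of neighbours, since the lowest value of miR-192-5p was 164 CPM and the highest of miR-194-5p was 104 CPM.

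Within a library, the ratio of miR-194-5p to miR-192-5p does not depend on the scaling. It was 0.302 and 0.472 in damaged libraries, against 0.291 and 0.200 in WT libraries. Damaged replicate 1 and WT replicate 1 were nearly level, and their exact 95% intervals overlapped, at 0.271 to 0.336 in damaged replicate 1 and 0.249 to 0.338 in WT replicate 1. The mean ratio was 0.387 ± 0.120 in damaged vesicles and 0.245 ± 0.0647 in WT vesicles (SD, n = 2 each; exact permutation p = 0.333, the smallest possible). Of the counts with the shared seed, miR-215-5p made up 1.95% and 1.70% in damaged libraries, against 1.17% and 0% in WT libraries. Nearly all reads with that seed were thus miR-192-5p in each library.

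**Figure D4:**
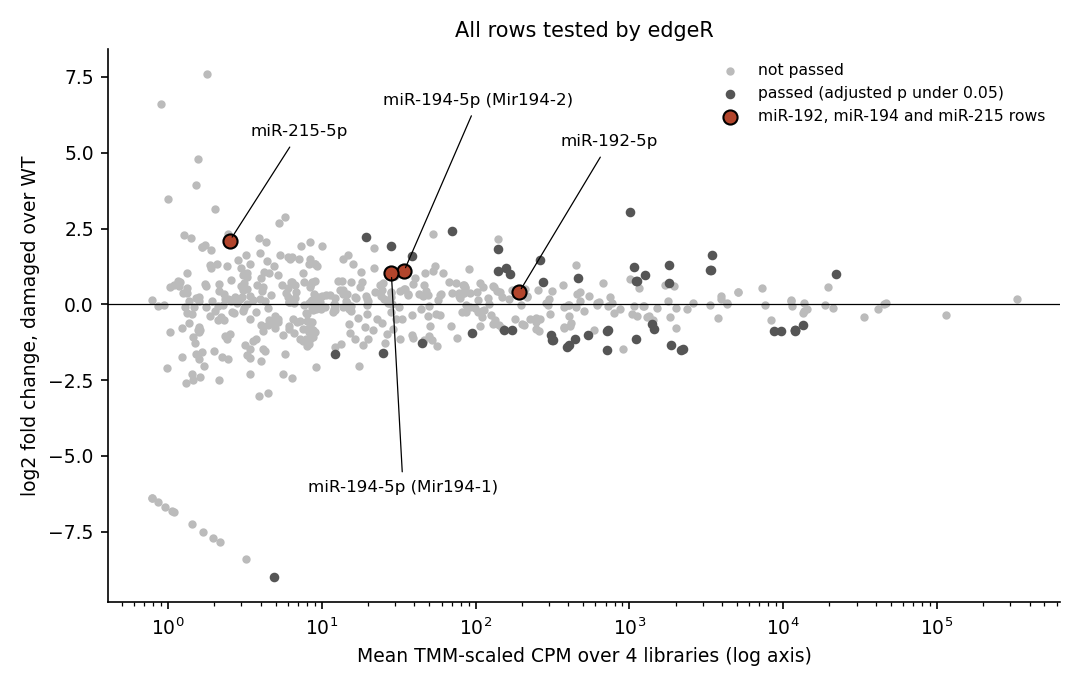
Log2 fold change (damaged over WT) against mean TMM-scaled CPM on a log axis for the 536 rows tested by edgeR, where dark points passed and light points did not. The 4 member rows (red) lie between 0.40 and 2.10, and none of them passed.

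The mature IDs whose pattern over the 4 libraries was nearest to each member were found by the root mean square difference of centred log2 CPM, a description over 4 libraries that share their depth and scaling. For miR-194-5p these were miR-30e-5p (0.11), miR-1249-3p (0.13) and miR-532-3p (0.18), while miR-192-5p was at 0.44 from it. MiR-532-3p had 54.7 and 111 CPM in damaged vesicles, against 42.7 and 36.8 CPM in WT vesicles, and so was also highest in damaged replicate 2. For miR-192-5p they were miR-483-5p (0.03), miR-190b-5p (0.05) and miR-103-3p (0.06). For miR-215-5p they were miR-495-3p (0.37), miR-7036b-3p (0.39) and miR-6238-3p (0.49), and miR-192-5p, its partner in seed, was at 1.43. None of these 9 miRNAs passed the test, beside 10.1% of the 483 mature IDs. They were chosen from the same libraries for a pattern near that of members that did not pass. That choice largely set this outcome in advance, as it did the high level of miR-532-3p in damaged replicate 2.

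Of other miRNAs that p53 is known to induce, mostly from human cells, few passed the test. Of 30 rows for 14 names, 15 were tested: 1 rose, 1 fell and 13 did not pass, a share near the 9.51% called over all 536 tested rows (22 higher and 29 lower). The median log2 fold change was 0.50, beside 0.02 over all tested rows. The row that rose was miR-34b-3p, an arm of the hairpin that p53 activates together with miR-34c. It had 1580 and 2034 CPM in damaged vesicles, against 216 and 221 CPM in WT vesicles, a log2 fold change of 3.05 (edgeR adjusted p = 0.00351). The other arm of that hairpin, miR-34b-5p, did not pass, at a log2 fold change of 0.41 (edgeR adjusted p = 0.526). Neither arm of miR-34c passed, at 0.85 for 3p (edgeR adjusted p = 0.058) and 0.63 for 5p (edgeR adjusted p = 0.234). The row that fell was miR-34a-5p, the best-known p53-induced miRNA, with 10633 and 9959 CPM in damaged vesicles, against 16895 and 16238 CPM in WT vesicles, a log2 fold change of -0.69 (edgeR adjusted p = 0.0275). The other abundant rows were miR-143-3p, whose processing p53 promotes in human cells, and miR-149-5p. Their log2 fold changes were -0.12 (adjusted p = 0.635) and -0.01 (adjusted p = 0.969) by edgeR.

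Of the miRNAs known from human cells to target p53 messenger RNA, 9 of 12 rows were tested: 2 rose, 1 fell and 6 did not pass, with a median log2 fold change of -0.01. Over all tested rows 9.51% were called, and 4.10% were called as higher in damaged vesicles. The rows that rose are the copies of 1 mature sequence, miR-125b-5p, with log2 fold changes of 0.78 and 0.75 (edgeR adjusted p = 0.0305 for each). The row that fell was miR-25-3p, with 699 and 664 CPM in damaged vesicles, against 1507 and 1518 CPM in WT vesicles, a log2 fold change of -1.15 (edgeR adjusted p = 0.00914). MiR-30d-5p, the most abundant single row of the list, though below the miR-125b-5p copies together in every library, had a log2 fold change of 0.59 (edgeR adjusted p = 0.0544). Without damaged replicate 2 the calls left in these lists and that of p53-induced miRNAs were miR-34b-3p and miR-25-3p. Without damaged replicate 1, WT replicate 1 or WT replicate 2, no row of the whole table passed.

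**Figure D5:**
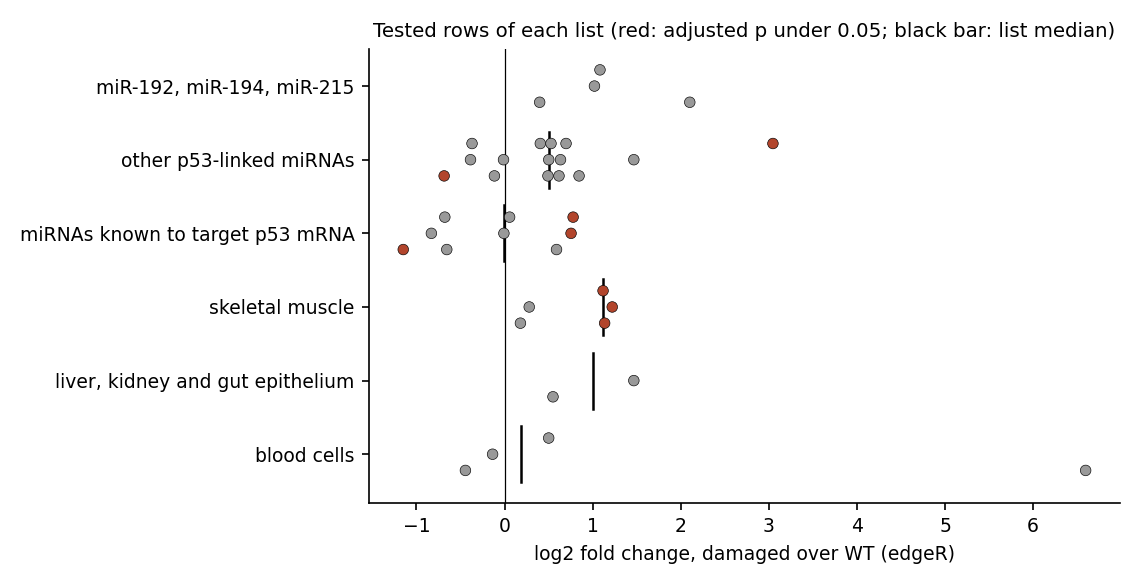
Log2 fold change (damaged over WT) of the tested rows of miR-192, miR-194 and miR-215, of the p53 lists and of the cell type markers. Red points passed by edgeR and black bars are list medians. The member rows all lie above 0 with none passed, and the point at the far right is miR-144-3p, whose fitted value stands against 0 counts in both WT libraries and is no bound.

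Markers of skeletal muscle made up 35.5% and 38.1% of all counts in damaged libraries, against 29.5% and 33.4% in WT libraries. Of their 6 rows 5 were tested, and 3 rows rose, against 4.10% called as higher over all tested rows. They were those of miR-133b-3p and both copies of miR-133a-3p, with log2 fold changes of 1.12 to 1.22. Nearly all muscle marker counts were from miR-206-3p, the most abundant row of the table. It had 2340927 of 2447761 and 2689150 of 2798388 of them in damaged libraries, against 1310920 of 1349278 and 2489000 of 2552709 in WT libraries. Its log2 fold change was 0.18 (edgeR adjusted p = 0.334). That of miR-1a-3p of Mir1a-1 was 0.28 (edgeR adjusted p = 0.262). The untested row, miR-1a-3p of Mir1a-2, was at 0 in every library. It shares bases with an entry on the opposite strand, where reads cannot be assigned. Since miR-192, miR-194 and miR-215 are abundant in liver, kidney and gut epithelium, 10 epithelial markers, not all of them specific to these tissues, were read beside them. Together they had 120 and 89 counts in damaged libraries, against 34 and 48 counts in WT libraries, or 0.00174% and 0.00121% in damaged libraries, against 0.000743% and 0.000628% in WT libraries. Of the 10 rows, 2 were tested and neither passed, beside 9.51% called over all 536 tested rows. Both had a higher mean in damaged vesicles, as had the members. Over the whole table, 273 of 536 tested rows had a log2 fold change above 0. MiR-375-3p had 36 and 67 counts in damaged libraries, against 30 and 24 counts in WT libraries (log2 fold change 0.55, edgeR adjusted p = 0.605). Scaled, that was 5.25 and 8.91 CPM in damaged vesicles, against 6.64 and 3.15 CPM in WT vesicles, so its groups overlapped. MiR-200c-3p had 39 and 21 counts in damaged libraries, against 0 and 22 counts in WT libraries (log2 fold change 1.47, edgeR adjusted p = 0.545), so its groups overlapped. Among the untested rows, miR-429-3p had 38 counts in damaged replicate 1 and 0 in the other libraries, and miR-200a-3p and miR-205-5p had at most 6 counts in a library. The rows of miR-122-5p (liver), miR-802-5p, miR-200b-3p, miR-141-3p and miR-203-3p were at 0 in every library, but those of miR-122-5p and miR-203-3p share bases with an entry on the opposite strand, where reads cannot be assigned.

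Of 6 blood-cell markers, 4 were tested and none passed, beside 9.51% called over all 536 tested rows. The red-cell miRNA miR-451a had 10291 and 10423 counts in damaged libraries, against 7603 and 11346 counts in WT libraries, a log2 fold change of -0.14 (edgeR adjusted p = 0.533). The log2 fold change was 0.50 for miR-150-5p (adjusted p = 0.332) and -0.44 for miR-223-3p (adjusted p = 0.533) by edgeR. MiR-144-3p, from the cluster of miR-451a, had 12 and 14 counts in damaged libraries, against 0 and 0 counts in WT libraries. Its fitted log2 fold change was 6.60 (edgeR adjusted p = 0.0807), which is no bound because both WT counts are 0. All blood markers together held 0.154% and 0.148% of counts in damaged libraries, against 0.172% and 0.152% in WT libraries. MiR-486a-5p and miR-142a-3p were at 0 and also share bases with an opposite-strand entry. Bovine miRNAs of the serum with the same sequence as a mouse miRNA cannot be told apart from it in these counts, and the part of serum, epithelial or blood miRNAs in the member levels was not tested. In vesicle pools, fewer vesicles of a kind and less of a miRNA per vesicle cannot be told apart.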

How the data were processed

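Small RNA of vesicles from 2 damaged and 2 WT samples was analysed from 1 deposited table of raw read counts per mature miRNA. The submitters' processing notes name the tools FastQC, BWA and featureCounts and the build mm10. The counts were made by featureCounts 2.0.1, per the file headers, with no strand option, and no option to count multi-mapping reads. No source used here gives the version of BWA, the adapter trimming or the release of miRBase.

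Rows were matched by coordinates to RefSeq miRNAs on GRCm38.p6: 1734 rows matched, 367 were named by hairpin position and 9 had no name. All 8 members matched. Gene neighbours came from GENCODE annotation of the same build.

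Counts were tested with edgeR 4.0.16 (R 4.3.3; glmQLFit and glmQLFTest, TMM, group as the only term, filterByExpr at a minimum count of 10), with Benjamini-Hochberg adjustment over all tested rows and a threshold of 0.05. The script was tested on simulated data drawn with a common dispersion. It called 24 of 92 rows simulated with a log2 change of 1 in size, and 81 of 101 with a change of 2. Of 320 unchanged rows it called 7. A row that did not pass can thus still differ. Alternatives were other scalings and filters, DESeq2 1.42.0, limma-voom 3.58.1, a robust fit, a replicate block, and leaving out each library. Likeness used log2 CPM with a prior count of 2. Intervals and floors (3 counts) cover counting error only, since no molecular identifiers are given for these reads.

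The members and the lists were chosen with earlier results of these data known. All members are described. From each list, the 3 most abundant tested rows and any row past the threshold are named, as are the 3 IDs most like each member. Marker rows and arms of miR-34b and miR-34c beyond these were named after their values were seen.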

Additional observations from a re-analysis of the deposited data

Results flagged for a closer look

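The miR-194-2-3p row, which was not tested, had 14 counts in damaged replicate 2, above the 3 counts that a count of 0 allows. It had 0 counts in damaged replicate 1 and in both WT libraries, so the signal rests on 1 library. With 2 libraries per group, no group was large enough for a test of outlying samples.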

How the results depend on the processing

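The 51 rows called over the whole table became 77 with upper-quartile scaling, 131 with no filter, 91 with the strict filter (10 CPM in at least 2 libraries), 109 with DESeq2 and 79 with limma-voom, and 0 to 30 when a library was left out. An unadjusted p under 0.05 was found for 165 rows. The log2 fold change of miR-194-5p passed for the Mir194-1 row with no filter (1.07), for the Mir194-2 row with no filter (1.13), and for the sum with no filter (1.10), with the strict filter (1.02) and with DESeq2 (1.02). With the replicate number as a block, 127 rows passed, and so did the Mir194-2 row (1.08) and the sum (1.07). The deviations of damaged replicate 1 and WT replicate 1 from their group means had a correlation of 0.003 over the tested rows. With 2 libraries per group the replicate 2 deviations mirror these, so the other pair adds nothing. This value gives no support for pairing by number, and the labels state none. The cause of these changes was not tested. MiR-192-5p and miR-215-5p passed under no alternative, and the strict filter left no value for miR-215-5p. All member log2 fold changes were positive under every alternative run. With miR-206-3p left out of the denominator, the members' share was 0.0479% in damaged and 0.0296% in WT libraries, against 0.0310% and 0.0205% with it, and 0.0289 to 0.0330% in damaged and 0.0194 to 0.0217% in WT libraries when a library was left out. MiR-215-5p had 9 counts in the shallowest library, WT replicate 1, and 0 in the deepest, WT replicate 2.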
